A study of Mus with 6 samples.

Results

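Autophagy encloses cytoplasm, damaged organelles and protein aggregates in a membrane, the autophagosome, and delivers them to lysosomes for breakdown. The ULK kinase complex starts the process, a class III PI3-kinase complex and lipid-handling proteins build the membrane, a ubiquitin-like conjugation system attaches ATG8 proteins to it, and cargo receptors tether what is to be degraded. In microglia, the brain's resident immune cells, this machinery takes part in the breakdown of engulfed material, and in many cell types insulin signalling restrains autophagy through AKT and mTORC1. The genes described here are 37 core members of that machinery, taken by gene symbol from the deposited table of normalized counts. All 37 had a row among the 18887 genes of the table, and all 37 passed the filter on low values.

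By role, the members comprise 5 genes of the ULK kinase complex, 5 genes of lipid supply, 5 genes of the class III PI3-kinase complexes, 11 conjugation enzymes, 5 ATG8 genes and 6 genes for cargo receptors and mitophagy. The samples comprised 4 libraries titled IRKO, with a genotype given as KO, and 2 control libraries with a genotype given as Ctr. Every library is a RiboTag precipitate, that is, ribosomes pulled down through a tagged ribosomal protein with the mRNA bound to them, from whole mouse brain, and the labels give microglia as the cell type. From the study's title, the knockout is taken to be that of the insulin receptor in microglia. The labels give no strain, age, sex, treatment or driver of the ribosome tag, and do not say whether each library came from its own animal, so p-values measure the spread between these libraries only.

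Each library held 13858978 to 14568773 recovered reads in IRKO and 16883098 to 19010680 in the controls. Insr, the insulin receptor gene, had normalized counts of 357, 366, 290.5 and 339.9 in IRKO, against 565 and 532 in the controls, a log2 change of −0.70 ± 0.14 (SE, limma adjusted p = 0.00211). Markers of several cell types moved with the groups. Of 24 microglia markers, 23 were higher in IRKO, and their summed normalized count was 300315 to 411577 in IRKO and 128150 to 168989 in the controls. All 18 astrocyte markers were lower in IRKO, with sums of 75197 to 111842 in IRKO and 854600.0 to 1085620.0 in the controls. Of 15 neuron markers, 12 were higher, and their sums were 82214 to 103016 in IRKO and 45679.9 to 58204 in the controls. Of 12 oligodendrocyte markers 8 were higher and 3 lower, and of 11 endothelial and mural markers 4 were higher and 2 lower. Of 5 tested border macrophage and monocyte markers 2 were higher and none lower. All 5 red blood cell markers were lower, with sums of 243.5 to 2132 in IRKO and 75516 to 161622 in the controls. No astrocyte or red blood cell marker was at 0 in any library, although the labels give microglia as the cell type. Ly6c2, a monocyte marker listed with those of border macrophages, was the only marker at 0 in any library. The controls thus held higher sums of the astrocyte than of the microglia markers, and the IRKO libraries the reverse. The part of cell content in the results below was not tested. In these bulk precipitates fewer cells of a type, less RNA per cell and RNA precipitated without the tag cannot be told apart.

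Fewer of the 37 genes were higher than lower in IRKO. On the deposited scaling 4 members were higher in IRKO, the ULK complex genes Ulk2 and Rb1cc1 and the PI3-kinase complex genes Becn1 and Uvrag. Another 14 were lower: Atg9a, Wipi1 and Wipi2 of lipid supply, the conjugation enzymes Atg3, Atg4b, Atg7 and Atg12, the ATG8 genes Map1lc3b and Gabarapl2, and Sqstm1, Nbr1, Optn, Tax1bp1 and Pink1 among the cargo and mitophagy genes. The other 19 did not pass. Of all 14698 genes tested, limma called 26.6% higher and 29.0% lower in IRKO, 55.6% in all, at a Benjamini-Hochberg adjusted p under 0.05. Among the 37 members the shares were 10.8% higher and 37.8% lower. The counts by step given below are of few genes and stand beside the same shares of all genes. The median log2 change, IRKO minus control, was −0.24 over the members and 0.02 over all genes tested.

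The 4 genes that were higher kept their sign and their call under TMM scaling and quantile normalization, and turned negative in 1 scaling, which shifts all genes alike. With each library shifted to an equal mean of the microglia markers, the median of all genes was −1.53 and the median of the members was −1.79. All 37 members were lower, including Becn1 (−0.91), Uvrag (−1.05), Ulk2 (−1.07) and Rb1cc1 (−1.13). In that scaling 12226 of the 14698 genes tested were called in either direction. Relative to the median of all genes, the members' median was −0.26 both as deposited and with that shift, and Becn1 stood at 0.61, Uvrag at 0.48, Ulk2 at 0.46 and Rb1cc1 at 0.39 in both. Directions below are on the deposited scaling unless another is named.

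**Figure D1:**
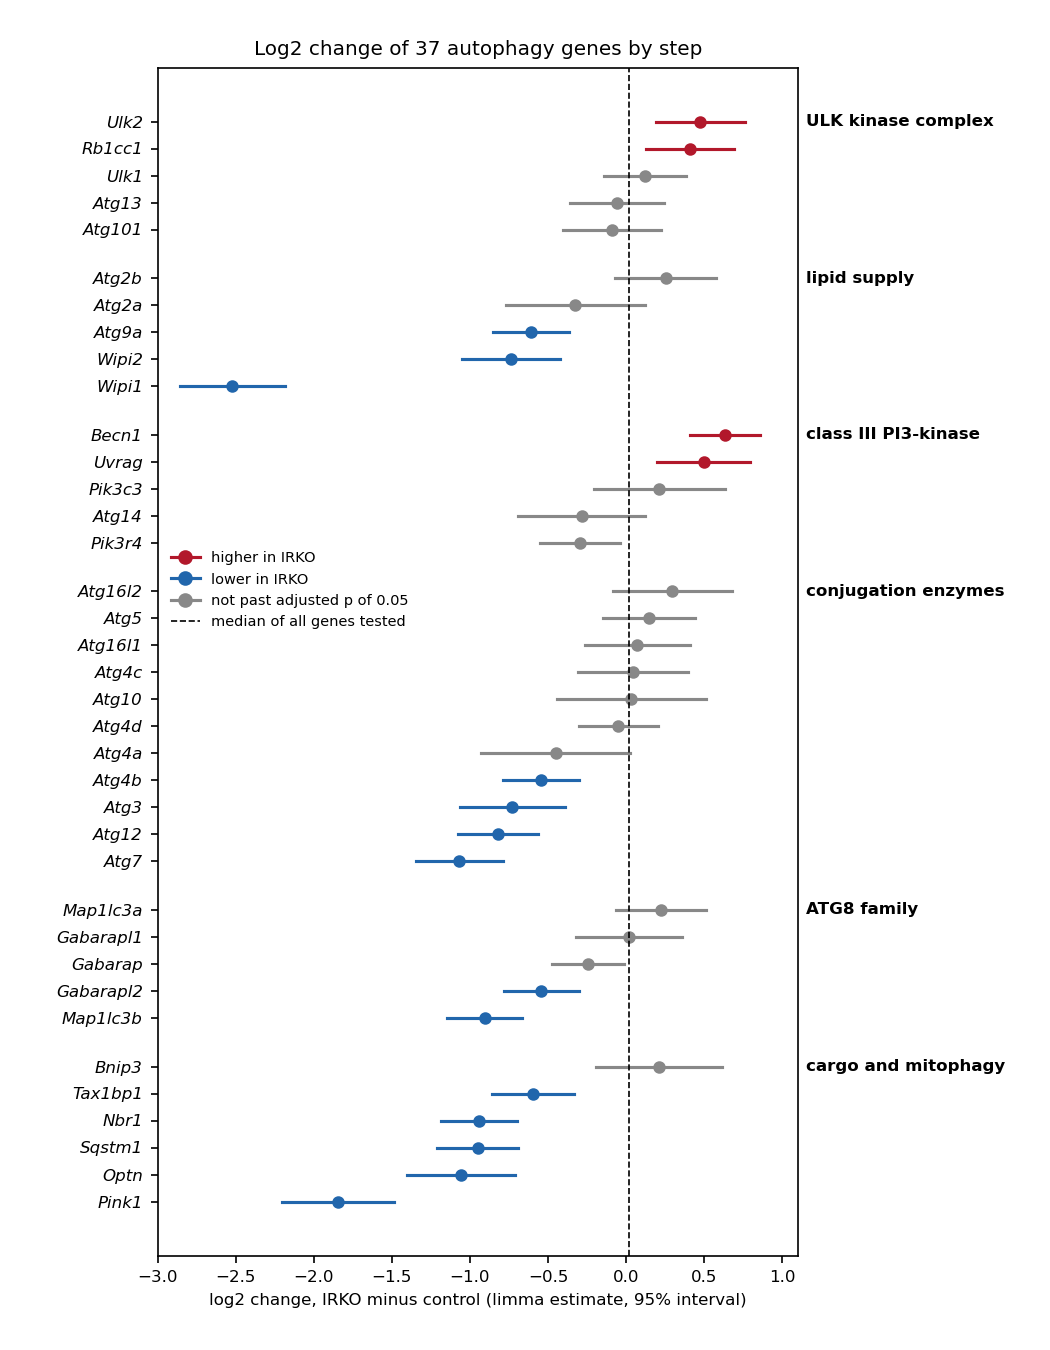
Limma log2 change (IRKO minus control, x axis) with its 95% interval for the 37 members, grouped by step. Red marks the 4 members higher in IRKO on the deposited scaling, all of which turn negative when libraries are scaled to the microglia markers, blue the 14 that were lower and grey the 19 that did not pass. The dashed line is the median of all genes tested, 0.02.

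The ULK complex receives nutrient signals and starts autophagosome formation. Of its 5 genes none was lower and 2 were higher in IRKO as deposited, against 26.6% of all genes tested. Ulk2, a kinase of the complex related to Ulk1, had normalized counts of 1499, 1454, 1180.4 and 1474 in IRKO, against 1004 and 1002 in the controls. All 4 IRKO values lay above both controls, with IRKO replicate 3 the lowest of them. The log2 change was 0.48 ± 0.13 (SE, limma adjusted p = 0.0106), and −1.07 when scaled to the microglia markers. Rb1cc1, which encodes the scaffold protein FIP200, had 496, 533, 448 and 456 in IRKO and 364 and 361 in the controls, again without overlap. Its log2 change was 0.41 ± 0.12 (SE, limma adjusted p = 0.0196), and −1.13 when scaled to the microglia markers.

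With fewer libraries both genes kept their size of change but could miss the threshold. Leaving out each library in turn, the log2 change was 0.44 to 0.56 for Ulk2 and 0.36 to 0.44 for Rb1cc1. Without 1 control, the other is assumed to vary like the IRKO libraries, which then give all of the spread. Ulk2 no longer passed when control replicate 1 was left out (limma adjusted p = 0.0557) or control replicate 2 (0.0553), nor Rb1cc1 without control replicate 1 (0.0802), control replicate 2 (0.0860) or IRKO replicate 2 (0.0538). The remaining subunits overlapped between the groups. Ulk1, the other kinase, averaged 797 ± 58.6 in IRKO and 732 ± 51.0 in the controls (SD, n = 4 and 2), with a 95% interval of −0.14 to 0.39 for its log2 change. For Atg13, a regulatory subunit, that interval ran from −0.36 to 0.25, and for its partner Atg101 from −0.40 to 0.22.

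Lipid supply, in which 3 of 5 genes were lower in IRKO against 29.0% of all genes tested, held the largest change of the 37 members. Wipi1, which binds the lipid made by the class III PI3-kinase and marks sites of autophagosome growth, lies on chromosome 11 from 109573521 to 109611389 (GRCm38.p6). Its normalized counts were 105, 92.7, 114 and 99.3 in IRKO, against 598 and 586 in the controls. The groups were far apart and each was narrow, and the control mean was 5.77 times the IRKO mean (log2 change −2.52 ± 0.15, SE, limma adjusted p = 1.81e-06). Its relative Wipi2, which recruits the ATG16L1 complex to the growing membrane, had 894, 1062, 1226 and 1164 in IRKO and 1805 and 1792 in the controls. Wipi2 fell by 0.74 on the log2 scale with an SE of 0.14 (limma adjusted p = 0.00180). For comparison, the astrocyte markers ranged from −5.21 to −2.69 in log2 change, just below Wipi1. The endothelial and mural markers ran from −2.78 to 1.59, and the oligodendrocyte markers from −1.93 to 1.23.

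Atg9a encodes a membrane protein that seeds the autophagosome and moves lipids between the leaflets of its membrane. It had 773, 870.4, 807 and 792 normalized counts in IRKO and 1289 and 1187 in the controls, so no IRKO library reached the lower control. The log2 change was −0.61 ± 0.11 (SE, limma adjusted p = 0.00129). The related lipid transfer genes Atg2a and Atg2b did not pass, although Atg2b was called higher under quantile normalization (log2 change 0.41, limma adjusted p = 0.0285). Atg2a averaged 419 ± 80.0 in IRKO and 524 ± 111 in the controls, and Atg2b 672 ± 91.1 in IRKO and 561 ± 34.1 in the controls (SD, n = 4 and 2).

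The class III PI3-kinase makes the lipid that WIPI proteins read. Of its 5 genes 2 were higher in IRKO as deposited, against 26.6% of all genes tested. None of the 5 was higher when scaled to the microglia markers. Becn1 encodes Beclin 1, the regulatory subunit common to both of its main complexes, on chromosome 11 from 101288258 to 101302286. It had 2144, 2123, 2097 and 1992 normalized counts in IRKO, against 1355 and 1342 in the controls. The 4 IRKO values were closely spaced and all lay above the controls, at 1.55 times the control mean (log2 change 0.63 ± 0.10, SE, limma adjusted p = 0.000674). Of the 4 members higher in IRKO on the deposited scaling, Becn1 was the only one that kept its call with each library left out in turn, at log2 changes of 0.62 to 0.65.

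Uvrag, whose product joins Beclin 1 in the complex that acts on endosomes and late autophagosomes, had 343, 306, 338 and 371 in IRKO and 238 and 241 in the controls. No IRKO value overlapped a control value, and the log2 change was 0.50 ± 0.13 (SE, limma adjusted p = 0.0110). With each library left out in turn its log2 change was 0.45 to 0.55, and it missed the threshold without control replicate 1 (0.49, limma adjusted p = 0.0567), a fit with a single control library. Atg14, whose product defines the autophagy-specific complex, averaged 236 ± 40.1 in IRKO and 287 ± 41.4 in the controls (SD, n = 4 and 2) and did not pass, with an interval of −0.69 to 0.12. Pik3c3, the catalytic subunit, had 559 in IRKO replicate 1 but 825 to 850.1 in the other IRKO libraries, against 588 and 721 in the controls.

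Pik3r4, the regulatory subunit that holds the kinase, showed the tightest values of any member. It stood at 351, 352, 352 and 356 in IRKO and at 433 in each control. Its log2 change of −0.30 ± 0.11 (SE) gave a limma adjusted p of 0.05003, just outside the threshold, and its call depended on the setting. EdgeR on the recovered reads called it lower (adjusted p = 0.0457), but not without IRKO replicate 1 (0.102). Limma called it with a pseudocount of 0.5 (adjusted p = 0.0497), no filter (0.00295), a filter at 50 (0.0415) or no variance trend (0.0459). It was not called with a pseudocount of 5 (limma adjusted p = 0.0507), TMM scaling (0.0548) or quantile normalization (0.237). Within the complex, then, Becn1 and Uvrag were higher in IRKO as deposited while the 3 other genes were not called. Scaled to the microglia markers all 5 were lower.

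**Figure D2:**
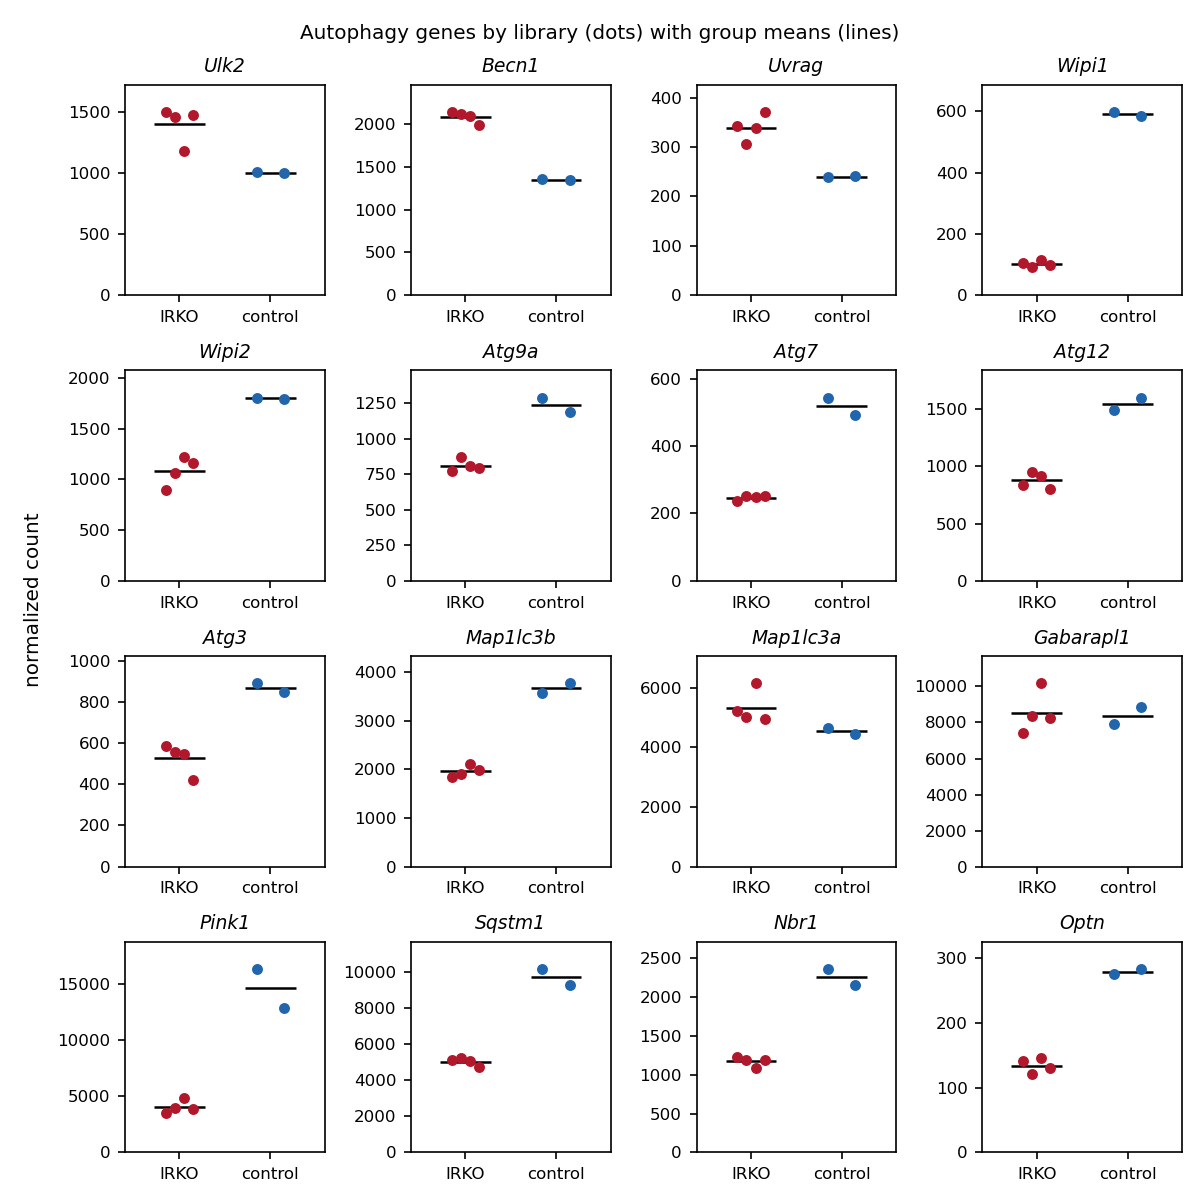
Normalized count (y axis, from 0) of 16 members in each library, with IRKO in red and controls in blue, and the group means as lines. Ulk2, Becn1 and Uvrag sit higher in IRKO as deposited and turn negative when scaled to the microglia markers, Map1lc3a and Gabarapl1 did not pass, and the other 11 genes lie lower in all 4 IRKO libraries than in both controls.

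The conjugation system works in 2 linked branches, of which the first joins ATG12 to ATG5 and the other attaches ATG8 proteins to lipid. Of its 11 genes 4 (36.4%) were lower in IRKO, against 29.0% of all genes tested, and none was higher. Atg7, the activating enzyme that serves both branches, fell to 236, 250.4, 248 and 251 normalized counts in IRKO, against 543 and 492 in the controls. The IRKO libraries were closely spaced and all below the lower control, and the control mean was 2.10 times the IRKO mean (log2 change −1.07 ± 0.12, SE, limma adjusted p = 0.000112). Atg3, which passes ATG8 proteins on to lipid, had 586, 556, 549 and 423 in IRKO and 889.7 and 849 in the controls. IRKO replicate 4 was the lowest, and the log2 change was −0.73 ± 0.15 (SE, limma adjusted p = 0.00274).

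Atg12, the ubiquitin-like protein joined to ATG5, had 837, 949, 917 and 804 in IRKO and 1493 and 1598 in the controls. The groups did not overlap, and its log2 change was −0.82 ± 0.11 (SE, limma adjusted p = 0.000335). Its partners in the conjugate were not called. Atg5 averaged 391 ± 36.7 in IRKO and 352 ± 3.38 in the controls, and Atg16l1, which places the conjugate on the membrane, 619 ± 89.9 in IRKO and 586 ± 57.9 in the controls (SD, n = 4 and 2). Intervals for their log2 changes were −0.15 to 0.44 and −0.27 to 0.41. Atg10, which carries ATG12 to ATG5, stood at a log2 change of 0.03 with an interval of −0.45 to 0.51, and Atg16l2, a relative of Atg16l1, at 0.30 with an interval of −0.08 to 0.68.

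Among the 4 ATG4 proteases, which trim ATG8 proteins and later free them from lipid, Atg4b was the only one called. It had 651, 713, 718 and 719.8 in IRKO and 994 and 1049.5 in the controls, with a log2 change of −0.55 ± 0.11 (SE, limma adjusted p = 0.00231). All 4 IRKO libraries lay below both controls, with IRKO replicate 1 the lowest. Atg4a also had all 4 IRKO values under the controls, at 53.5 to 70.0 against 78.7 and 89.1, but did not pass (limma adjusted p = 0.0942), and it had the fewest reads of any member. Atg4c and Atg4d had log2 changes of 0.05 and −0.05, with intervals of −0.31 to 0.40 and −0.30 to 0.20.

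The ATG8 proteins are the ubiquitin-like tags that coat the autophagosome, in an LC3 and a GABARAP subfamily. Of their 5 genes 2 were lower in IRKO, against 29.0% of all genes tested. Map1lc3b, the gene for the commonly used autophagosome marker LC3B, lies on chromosome 8 from 121590438 to 121598760. It had 1850.4, 1904, 2104 and 1975 normalized counts in IRKO, against 3577 and 3762 in the controls. Every IRKO value was below both controls, and the log2 change was −0.91 ± 0.11 (SE, limma adjusted p = 0.000119). Map1lc3a, its LC3 relative, had 5229, 5020.3, 6140.1 and 4942 in IRKO and 4649 and 4454 in the controls. Those IRKO values all lay above the controls, but the log2 change of 0.22 ± 0.13 (SE) did not pass as deposited (limma adjusted p = 0.160), passed under quantile normalization at 0.54, and was −1.32 when scaled to the microglia markers.

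Within the GABARAP subfamily, Gabarapl2 had 2145, 1971, 2176 and 2077 normalized counts in IRKO and 2911 and 3185 in the controls, a log2 change of −0.54 ± 0.11 (SE, limma adjusted p = 0.00217). The groups did not overlap, although under quantile normalization the call was lost (log2 change −0.24, limma adjusted p = 0.0886). Gabarapl1, a further GABARAP gene, had 7392, 8359.9, 10164 and 8254 in IRKO and 7933 and 8841 in the controls. Its groups overlapped fully, and the interval of its log2 change was −0.32 to 0.36. Gabarap itself was lower in all 4 IRKO libraries, at 3920.3 to 4069.8 against 4733 and 4731 in the controls, with a log2 change of −0.24 ± 0.10 (SE) that did not pass (limma adjusted p = 0.0682). DESeq2 on the recovered reads called Gabarap lower (adjusted p = 0.0366), as did limma with no filter on low values (adjusted p = 0.00719), while under quantile normalization it stood at 0.06.

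Cargo receptors and mitophagy genes had the lowest median of the 6 groups, −0.95. Of these 6 genes 5 were lower in IRKO, against 29.0% of all genes tested. Pink1, the kinase that marks damaged mitochondria for removal, lies on chromosome 4 from 138313409 to 138326296. It fell to 3521, 3969, 4843 and 3877 normalized counts in IRKO, against 16284 and 12881 in the controls. The highest IRKO value was far below the lower control, and the control mean was 3.60 times the IRKO mean (log2 change −1.85 ± 0.16, SE, limma adjusted p = 1.87e-05). Sqstm1, which encodes the receptor for ubiquitin-tagged aggregates, lies on chromosome 11 from 50200152 to 50210820 and had 5117, 5269.7, 5052 and 4727 in IRKO and 10175 and 9318 in the controls. All 4 IRKO libraries were close together, and the log2 change was −0.95 ± 0.11 (SE, limma adjusted p = 0.000146).

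Nbr1, a receptor with a domain layout similar to that of Sqstm1, had 1234, 1192, 1081 and 1186 in IRKO and 2359 and 2151 in the controls. Its log2 change was −0.94 ± 0.11 (SE, limma adjusted p = 0.000107). Optn, the gene for optineurin, which binds ubiquitin on damaged mitochondria and bacteria, had 141, 120.3, 146 and 129.5 in IRKO and 276 and 283 in the controls. That gene fell by 1.06 on the log2 scale with an SE of 0.15 (limma adjusted p = 0.000411). Tax1bp1, a further ubiquitin receptor, ranged from 1439 to 1668 in IRKO against 2127 and 2478 in the controls, with a log2 change of −0.59 ± 0.12 (SE, limma adjusted p = 0.00228). None of these 3 genes overlapped between the groups. Bnip3, a receptor in the outer mitochondrial membrane, was the only one of the 6 not called, at 939, 938, 791 and 612 in IRKO against 661 and 736 in the controls.

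Taken without a test, groups that did not overlap were common in the whole table, where 32.8% of genes had all IRKO values above both controls and 34.8% had all below. Together these were 67.6% of genes. Of the 37 members 7 lay wholly above and 17 wholly below. Besides the called genes these were Map1lc3a, Atg5 and Atg16l2 above, and Pik3r4, Atg4a and Gabarap below. IRKO replicates of the members were close to each other, with a median coefficient of variation of 8.67%, against 13.2% over all genes tested. That comparison was not matched for count level. The members had at least 54 reads in each library, while a value of 10 in 2 samples sufficed for a gene to be tested. Pik3r4 (0.599%), Gabarap (1.78%), Atg7 (2.92%) and Becn1 (3.23%) varied least, and Atg10 (19.8%) and Atg2a (19.1%) most.

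A ratio of related genes within a library does not depend on a scaling factor common to all genes of that library. Quantile normalization is not such a scaling and can change the ratio. Of 8 such pairs among the members, 3 had ratios that did not overlap between the groups and 5 overlapped. The share among ratios of other gene pairs was not measured. Of single genes tested, 67.6% did not overlap. The ratio of Map1lc3b to Map1lc3a was 0.354, 0.379, 0.343 and 0.400 in IRKO, against 0.769 and 0.845 in the controls, a difference in mean log2 ratio of −1.13. The ratio of Wipi1 to Wipi2 was 0.117, 0.0873, 0.0927 and 0.0854 in IRKO, against 0.331 and 0.327 in the controls, a difference of −1.79. For Gabarapl2 over Gabarapl1 the ratios were 0.290, 0.236, 0.214 and 0.252 in IRKO, against 0.367 and 0.360 in the controls, a difference of −0.56. Each of these 3 pairs had a two-sided exact permutation p of 0.0667, the smallest that 4 against 2 libraries allow, so none of the 8 could pass 0.05. These pairs were chosen with the values known, and such ratios show unequal change without saying which gene moved.

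**Figure D3:**
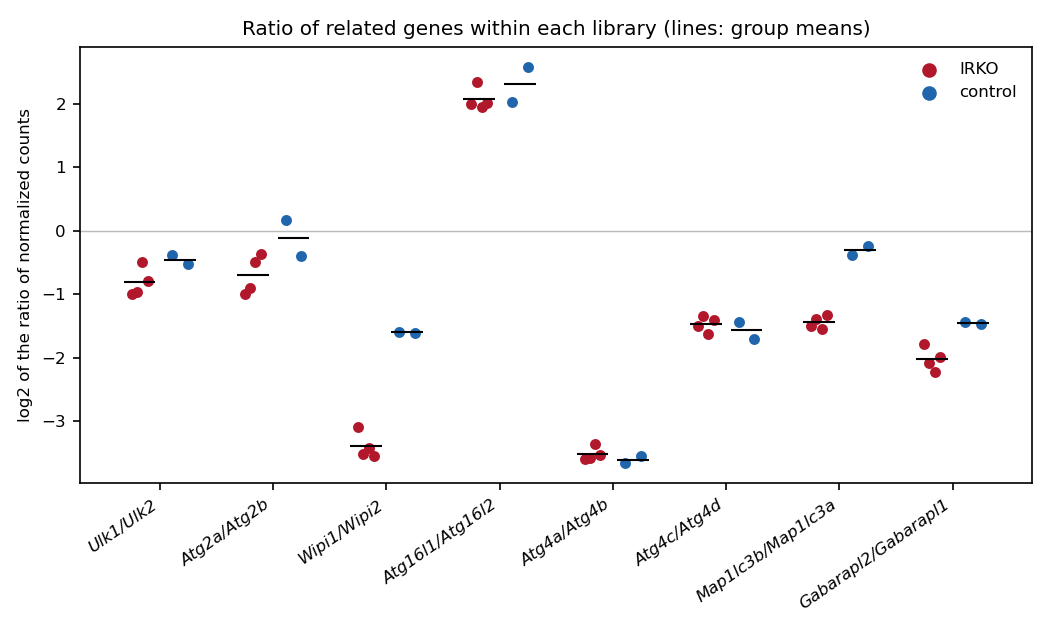
Log2 ratio of the normalized counts of 8 pairs of related members within each library (y axis), with IRKO in red, controls in blue and group means as lines. The ratios of Wipi1 to Wipi2, Map1lc3b to Map1lc3a and Gabarapl2 to Gabarapl1 are lower in all 4 IRKO libraries than in both controls, and the other 5 pairs overlap.

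The remaining pairs showed smaller differences. The mean log2 ratio of Ulk1 to Ulk2 differed by −0.35 and that of Atg2a to Atg2b by −0.58 (two-sided exact permutation p = 0.200 for both). Atg16l1 over Atg16l2 differed by −0.23 (p = 0.333), Atg4a over Atg4b by 0.09 (p = 0.467) and Atg4c over Atg4d by 0.10 (p = 0.533), by the same exact permutation test.

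Beyond the core members, 45 further genes of the pathway were read, of which 7 (15.6%) were higher and 14 (31.1%) lower in IRKO. The shares over all genes tested were 26.6% and 29.0%. The 45 genes had a median log2 change of −0.14 as deposited and −1.69 scaled to the microglia markers. In that scaling none of the 45 was higher, the highest being at −0.27 where the median of all genes was −1.53. Rises named next are on the deposited scaling. Among 11 regulators 3 were higher and 2 lower. Trp53inp2, whose product brings LC3 out of the nucleus, averaged 2376 ± 209 in IRKO and 8397 ± 1144 in the controls, and Prkaa2, a catalytic subunit of the energy sensor AMPK, 331 ± 49.0 in IRKO and 156 ± 19.6 in the controls (SD, n = 4 and 2). Their log2 changes were −1.82 ± 0.13 (SE, limma adjusted p = 5.46e-06) and 1.08 ± 0.17 (SE, limma adjusted p = 0.000746). Of 7 membrane and scaffold genes 2 were higher, Atg9b and Wdfy3 at log2 changes of 1.09 and 0.70, and 1 was lower.

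Fusion with lysosomes is the last step, and of its 15 genes none was higher and 5 (33.3%) were lower. Over all genes tested 26.6% were higher and 29.0% lower. Lamp1, a major protein of the lysosomal membrane, averaged 7874 ± 669 in IRKO and 14484 ± 1437 in the controls (SD, n = 4 and 2), a log2 change of −0.88 ± 0.14 (SE, limma adjusted p = 0.000615). Vps11, a subunit of the tethering complexes that act before fusion, changed by −0.58 ± 0.12 (SE, limma adjusted p = 0.00325). Among 12 other receptors 2 were higher and 6 lower. Calcoco1 fell by 1.18 on the log2 scale (limma adjusted p = 0.000104), while Retreg1, a receptor for degradation of the endoplasmic reticulum, was higher by 1.28 as deposited (limma adjusted p = 0.000106).

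**Figure D4:**
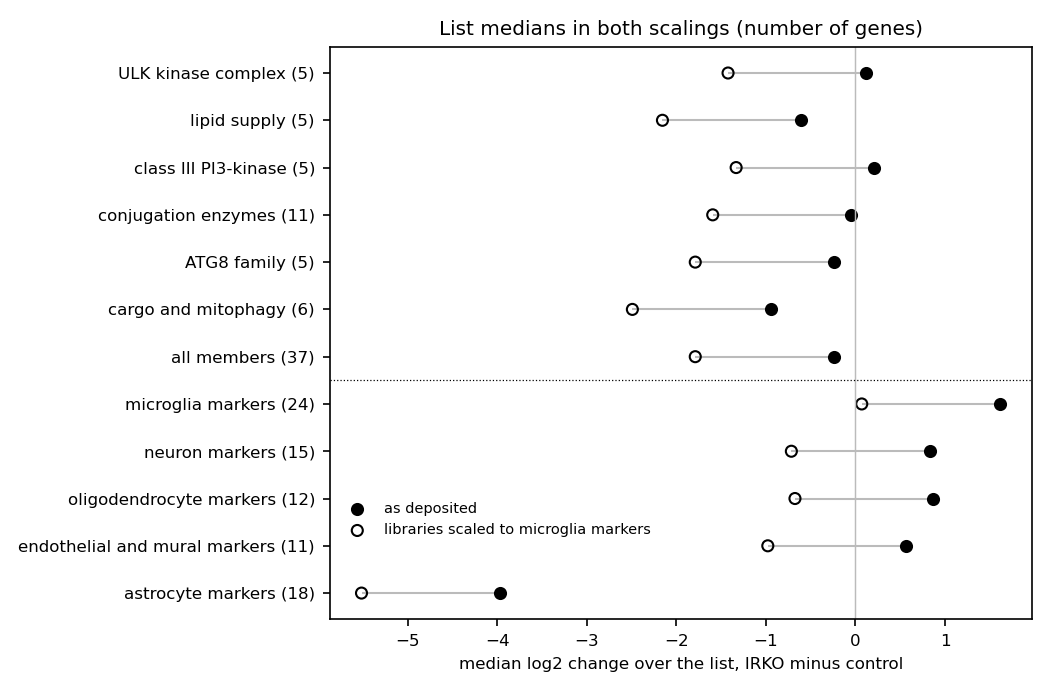
Median log2 change (x axis, IRKO minus control) of the 6 groups of members, of all 37 and of 5 cell type marker lists, as deposited (filled) and with libraries scaled to the microglia markers (open). The members' medians lie between −0.95 and 0.21 as deposited, between those of the astrocyte markers (−3.97) and the microglia markers (1.61), and all are below 0 in the other scaling.

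Set beside the cell type markers, no member reached the change of the microglia markers' median, 1.61, and none fell as far as the astrocyte markers' median, −3.97. The highest member, Becn1, stood at 0.63, close to the medians of the endothelial and mural markers (0.57) and below those of the neuron (0.83) and oligodendrocyte markers (0.87). Some of these medians cover genes that moved both ways. The endothelial and mural markers ran from −2.78 to 1.59 and the oligodendrocyte markers from −1.93 to 1.23. From which cells the members' transcripts came was not measured.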

How the data were processed

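Ribosome-bound RNA of 6 mouse brain precipitates was analysed from 1 deposited table. Bowtie2 and the build GRCm38.p6 are named per the submitters' processing notes. Which tools counted and normalized the reads, the annotation and the strandedness are not stated in the labels. The signal that the authors deposited is, judged from the values, gene counts over a size factor for each library, and 100% of values were whole multiples of the value of 1 read within 0.05 reads. The recovered reads gave back the median-of-ratios size factors. In IRKO replicate 1 a read is worth 0.991, too near 1 to tell from rounding.

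A gene was tested where 2 or more samples reached a value of 10, which left 14698. Values were taken as log2(value + 1), which understates changes of low genes, and fitted with limma 3.58.1 (R 4.3.3) with a mean-variance trend, over all 6 samples, with IRKO minus control as the contrast. P-values were two-sided and Benjamini-Hochberg adjusted over all genes tested. The fit was tested on simulated data in which few genes changed, in randomly drawn directions. That test does not bear on scaling or on cell content. The members had at least 54 reads in each library. The members, the lists, the pairs and the rule for values shown were chosen with earlier results of these data known. By that rule every member is accounted for, and values in each library are shown for up to 4 called members per step with the smallest p and for the member with the highest mean. Those of further members, of Insr and of ratios are shown besides. Of the other pathway genes, the 2 with the smallest p in each group are named. Symbols were matched to RefSeq genes of GRCm38.p6, which held all 37 members. The spans of 5 members overlap another protein-coding gene: Atg12 with Ap3s1, Atg4a with Psmd10, Atg4d with Kri1, Becn1 with Cntd1 and Map1lc3b with Zcchc14. Without a known strand, reads in the shared stretch cannot be told apart. Atg4a and Gabarapl2 have named processed copies in RefSeq, which were not analysed here, so their values may include reads of those copies. Libraries of 1 group differed by a chi-square of 17.5 to 38.6 per degree of freedom, so none was counted as a duplicate. Alternatives were other pseudocounts, filters and scalings, no variance trend, count tests of the recovered reads (DESeq2 1.42.0, edgeR 4.0.16), a replicate block, and leaving out each sample.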

Additional observations from a re-analysis of the deposited data

Results flagged for a closer look

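Among 38 genes examined, the 37 members and Insr, 3 had an IRKO library whose gap to its nearest neighbour took up more of the group's range than Dixon's 95% critical value for 4 samples allows. About 1 group in 20 passes that limit by chance. Ulk2 had 1180.4 normalized counts in IRKO replicate 3, below 1454 to 1499 in the other 3 IRKO libraries. Pik3c3 had 559 in IRKO replicate 1, below 825 to 850.1 in the others. Atg4b had 651 in IRKO replicate 1, below 713 to 719.8 in the others, and all 4 of its values stayed under both controls.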

How the results depend on the processing

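Leaving out either of the 2 control replicates moved the count of members higher in IRKO, 4 as reported, to 1 (without control replicate 1) or 2 (without control replicate 2). Over all 6 samples left out in turn it ranged from 1 to 4, the count lower stayed at 14, and the members' median ranged from −0.25 to −0.14, highest without control replicate 1. Becn1 and the 14 lower members kept their calls in all 6 such fits. Quantile normalization moved the members' median to 0.0095, where that of all genes was 0.12. Scaling to the microglia markers gave 0 members higher, 37 lower and a median of −1.79. Of all 14698 genes tested 12226 were called there in either direction, and the median of all genes was −1.53. In that scaling the signs turned for Ulk1 (−1.42), Ulk2 (−1.07), Rb1cc1 (−1.13), Atg2b (−1.29), Pik3c3 (−1.33), Becn1 (−0.91), Uvrag (−1.05), Atg10 (−1.51), Atg5 (−1.40), Atg16l1 (−1.47), Atg16l2 (−1.25), Atg4c (−1.50), Map1lc3a (−1.32), Gabarapl1 (−1.53) and Bnip3 (−1.33), by the construction of a shift common to all genes. Under quantile normalization they turned for Atg13 (0.15), Atg101 (0.11), Atg4d (0.12) and Gabarap (0.061), none of them called. Other turns were also of genes not called. They were Atg13 (0.038) and Atg4d (0.0077) with edgeR on the 5 libraries without IRKO replicate 1, where the members' median was −0.19. When a library was left out, signs turned for Atg13 (−0.15 to 0.033), Atg101 (−0.20 to 0.021), Atg10 (−0.064 to 0.17), Atg16l1 (−0.031 to 0.17), Atg4c (−0.073 to 0.16) and Gabarapl1 (−0.068 to 0.097). The other alternatives, with edgeR and DESeq2 on all 6 libraries among them, gave 4 members higher and 14 to 16 lower, except quantile normalization (6 higher, 13 lower) and edgeR without IRKO replicate 1 (5 higher, 14 lower).

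Replicate numbers 1 and 2 occur in both groups, and deviations from the group means correlated at −0.0824 and 0.0790 for libraries of the same number, so the numbers are not taken to pair the samples. With a replicate block on those 4 libraries 4 members were higher, 14 lower and the median was −0.24, with Atg101 at 0.057 and Gabarapl1 at −0.091, while Uvrag lost its call (limma adjusted p = 0.0744) and Bnip3 gained one (log2 change 0.43, limma adjusted p = 0.0375). The same 4 libraries without the block, a fit added after the data had been seen, gave 5 higher, Bnip3 among them (limma adjusted p = 0.0206), and 14 lower, with the same estimates. Precision is limited by the 2 control libraries and, for the members with few reads such as Atg4a (54 in its lowest library) and Wipi1 (94), by counting error.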
